A study of Mus musculus with 6 samples.

Results

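The vomeronasal type 2 receptor genes (symbols starting Vmn2r) were followed through 6 lists of chromatin immunoprecipitation sequencing (ChIP-seq) peaks. ChIP-seq sequences the DNA recovered with an antibody, here a rabbit antibody against the clock transcription factor BMAL1, so that antibody signal appears as peaks with a summit. The members are the 124 protein-coding genes with such a symbol, of 21896 protein-coding genes in the RefSeq table of GRCm38.p6, which shares its coordinates with mm10. The family was selected on these same lists, from counts of peaks near its members that were already known, so its counts in these lists are a description and carry no test. A region near a member listed only in CKO libraries was known as well, so the genotype comparison carries no test either.

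The libraries came from retinas of C57BL/6 mice. Bmal1 CKO 1 to 3 carried a conditional knockout of Bmal1, and control 1 to 3 were wild type. None had an external treatment. The labels give weaning at P20, and they name neither the age at sampling, the hour of the day, the cells in which Bmal1 was deleted nor the Cre line. Nothing says whether a library came from 1 mouse or from several pooled.

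Vomeronasal type 2 receptors are G protein-coupled receptors of class C with a long extracellular domain. They are made by sensory neurons of the basal layer of the vomeronasal organ, a chemosensory organ in the nose, where they detect peptide and protein signals such as tear peptides and urinary proteins. Their signal runs through the G protein subunit encoded by Gnao1 and the cation channel encoded by Trpc2. The genes stand in clusters of near-identical copies among many pseudogenes.

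Lists differed greatly in length. They held 1444, 138254 and 519 peaks in Bmal1 CKO 1, 2 and 3, and 179475, 410 and 372 peaks in control 1, 2 and 3. The background across the genome, worked back from fold and p as stacked fragments, was 2.78, 5.83 and 0.560 in the CKO libraries and 3.46, 0.609 and 0.852 in the controls. Each genotype thus had 1 long list (Bmal1 CKO 2 and control 1) and 2 short ones. Of 10 genes that mark the retina, 7 had a peak within 1 kb of a gene end in Bmal1 CKO 2 and 6 in control 1, and 0 had one in any short list. Crx, a photoreceptor transcription factor gene, was among those with one in Bmal1 CKO 2. A peak list cannot show whether Bmal1 was lost or whether these genes were expressed.

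The promoters of Vmn2r29, Vmn2r117 and Vmn2r112 are shown because a summit lay in the first pair and the last is a near-identical copy of the second. Each covers 250 bases before to 50 bases after the annotated start, read 5′ to 3′ from RefSeq (GRCm38.p6). Capitals mark CG pairs in Vmn2r29 (chr7:7278240-7278539, minus strand). In Vmn2r117 (chr17:23479548-23479847, minus strand) and Vmn2r112 (chr17:22600898-22601197, plus strand) they mark CACGTG, the E-box to which the CLOCK-BMAL1 pair is known to bind.
Vmn2r29: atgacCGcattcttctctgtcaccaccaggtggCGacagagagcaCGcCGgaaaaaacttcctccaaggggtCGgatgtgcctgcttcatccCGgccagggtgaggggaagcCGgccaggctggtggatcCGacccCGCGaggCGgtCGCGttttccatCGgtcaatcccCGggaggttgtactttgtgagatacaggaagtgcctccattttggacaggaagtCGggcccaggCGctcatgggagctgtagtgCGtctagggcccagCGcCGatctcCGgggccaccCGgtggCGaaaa
Vmn2r117: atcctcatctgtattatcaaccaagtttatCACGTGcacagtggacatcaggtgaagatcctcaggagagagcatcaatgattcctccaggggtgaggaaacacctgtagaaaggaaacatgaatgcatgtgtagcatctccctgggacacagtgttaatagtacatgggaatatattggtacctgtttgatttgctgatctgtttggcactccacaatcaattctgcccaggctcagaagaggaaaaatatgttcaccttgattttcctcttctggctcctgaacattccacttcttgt
Vmn2r112: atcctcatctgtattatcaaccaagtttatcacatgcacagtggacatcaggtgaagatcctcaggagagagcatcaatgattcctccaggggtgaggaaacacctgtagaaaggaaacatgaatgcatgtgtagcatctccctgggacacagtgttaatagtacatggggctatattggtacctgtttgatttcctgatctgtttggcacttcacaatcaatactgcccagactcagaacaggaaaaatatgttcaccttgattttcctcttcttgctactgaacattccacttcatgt

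The first promoter stood apart from the rest of the family, with 23 CG pairs and 62.3% G and C. Of the 124 genes 117 had a promoter in the RefSeq table, and their median was 1 CG pair (quartiles 0 and 2) and 38.0% G and C. The next highest count after Vmn2r29 was 4. Over 16224 genes outside the vomeronasal and olfactory receptor families the median was 15 CG pairs and 57.3% G and C. Vmn1r promoters, those of the other vomeronasal receptor family, had a median of 1 CG pair, as had the promoters of olfactory receptor (Olfr) genes. 

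**Figure D1:**
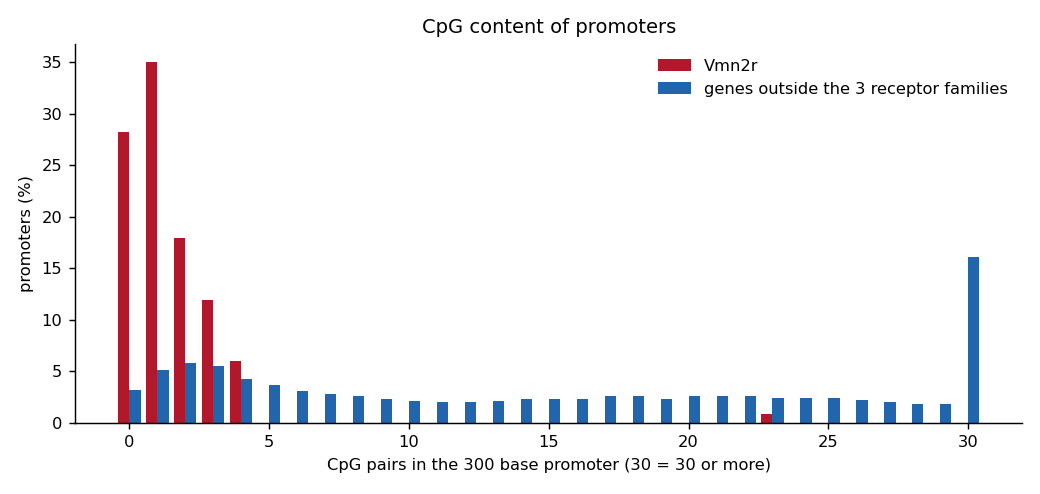
Share of promoters (%, y axis) with each number of CG pairs in the 300 bases (x axis, with 30 standing for 30 or more), for Vmn2r genes (red, n = 117) and genes outside the 3 receptor families (blue, n = 16224). Of the Vmn2r promoters 28.2% held no CG pair, and the single bar at 23 is Vmn2r29.

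The promoters of Vmn2r117 and Vmn2r112 differed at 11 of 300 bases. One of them, G34A counted from the 5′ end with Vmn2r117 first, lies in the E-box, so that Vmn2r112 has none there. Vmn2r116, which encodes the receptor of the tear peptide ESP1, has a promoter 96.3% identical to that of Vmn2r117 and carries the same G34A. Such closeness was common in the family. The most similar other Vmn2r promoter was 92.0% identical in the median, 37 of 117 promoters had a partner of at least 95% identity, and Vmn2r31 and Vmn2r33 had the same 300 bases. Vmn2r29 had the lowest value, 49.6%. Reads from such copies can be placed at more than 1 gene, and how the authors treated them is not given in the sources used here.

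The E-box CACGTG, which reads the same on both strands, was found in 10 of 117 Vmn2r promoters (8.55%), against 7.91% of all 17491 promoters of protein-coding genes. It was found in 0.485% of Vmn1r and 2.12% of Olfr promoters. Of 1348 genes outside the receptor families with no more CG pairs than the Vmn2r median, 0.816% had it. CACGTG itself holds a CG pair, so promoters without one, 38.4% of these and 28.2% of the Vmn2r promoters, could not have it. The Vmn2r promoters were not limited in CG pairs, and Vmn2r32, Vmn2r48 and Vmn2r49 have 2 each. The 0.816% thus cannot be set against the 8.55%. The related motif CACGTT, searched on both strands, was found in 3.42% of Vmn2r promoters and 4.75% of all promoters. The E-box promoters belonged to Vmn2r32, Vmn2r34, Vmn2r37, Vmn2r42, Vmn2r45, Vmn2r48, Vmn2r49 and Vmn2r61 on chromosome 7 and to Vmn2r95 and Vmn2r117 on chromosome 17. The promoters of Vmn2r32 and Vmn2r49 are identical, as are those of Vmn2r34 and Vmn2r45, so the 10 are not independent of each other. Vmn2r117 alone among them had a summit inside its promoter, in Bmal1 CKO 1, at base 186, while the E-box spans bases 31 to 36. Vmn2r95 had no peak within 10 kb in any list. A match of letters is not a bound site.

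A summit within 10 kb of the gene was listed for 8 of 124 members (6.45%) in Bmal1 CKO 1, for 89 (71.8%) in Bmal1 CKO 2 and for 4 (3.23%) in Bmal1 CKO 3. In control 1 it was listed for 89 members (71.8%), in control 2 for 1 (0.806%) and in control 3 for 0, which allows up to 2.93% (exact binomial 95% interval, counting error only). The shares over all protein-coding genes were 2.04%, 87.8% and 1.07% in Bmal1 CKO 1, 2 and 3 and 92.6%, 0.776% and 0.754% in control 1, 2 and 3. The family thus lay below the background in both long lists, above it in the short lists of Bmal1 CKO 1 and 3, near it in control 2 and at 0 in control 3. The interval in Bmal1 CKO 3 (0.886% to 8.05%) includes the background. Vmn1r genes (61.0% and 58.0%) and Olfr genes (56.3% and 59.0%) had lower shares still in Bmal1 CKO 2 and control 1. Their windows are shorter, however, with median gene lengths of 0.924 kb and 0.95 kb against 24.4 kb for Vmn2r genes. Per Mb of window, Vmn2r genes had fewer peaks than either family in both of these lists, as given below. In Bmal1 CKO 1 and 3, Vmn1r genes had 3.03% and 0.866%, and Olfr genes had 0.631% and 0.270%. Members are neighbours and can share a peak, so they are not independent of each other.

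The mean share was 27.2% ± 38.7 in CKO libraries and 24.2% ± 41.2 in controls (SD, n = 3 each), a difference of 2.96 percentage points that is far smaller than the spread within a genotype. Its sign depended on single libraries. It was −19.4 without Bmal1 CKO 2, −8.74 without control 2 and −9.14 without control 3, and 26.7 without control 1. Over all protein-coding genes the means were 30.3% ± 49.8 in CKO libraries and 31.4% ± 53.0 in controls. Among the short lists, the CKO values (6.45% and 3.23%) did not overlap the control values (0.806% and 0), and the same held over all protein-coding genes (2.04% and 1.07% in CKO libraries, 0.776% and 0.754% in controls). With the 372 strongest peaks of each library, 2, 1 and 2 members had a peak in Bmal1 CKO 1, 2 and 3, against 1, 1 and 0 in control 1, 2 and 3. All protein-coding genes had 0.694%, 0.945% and 0.749% in the CKO libraries and 0.986%, 0.690% and 0.754% in the controls under that setting.

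**Figure D2:**
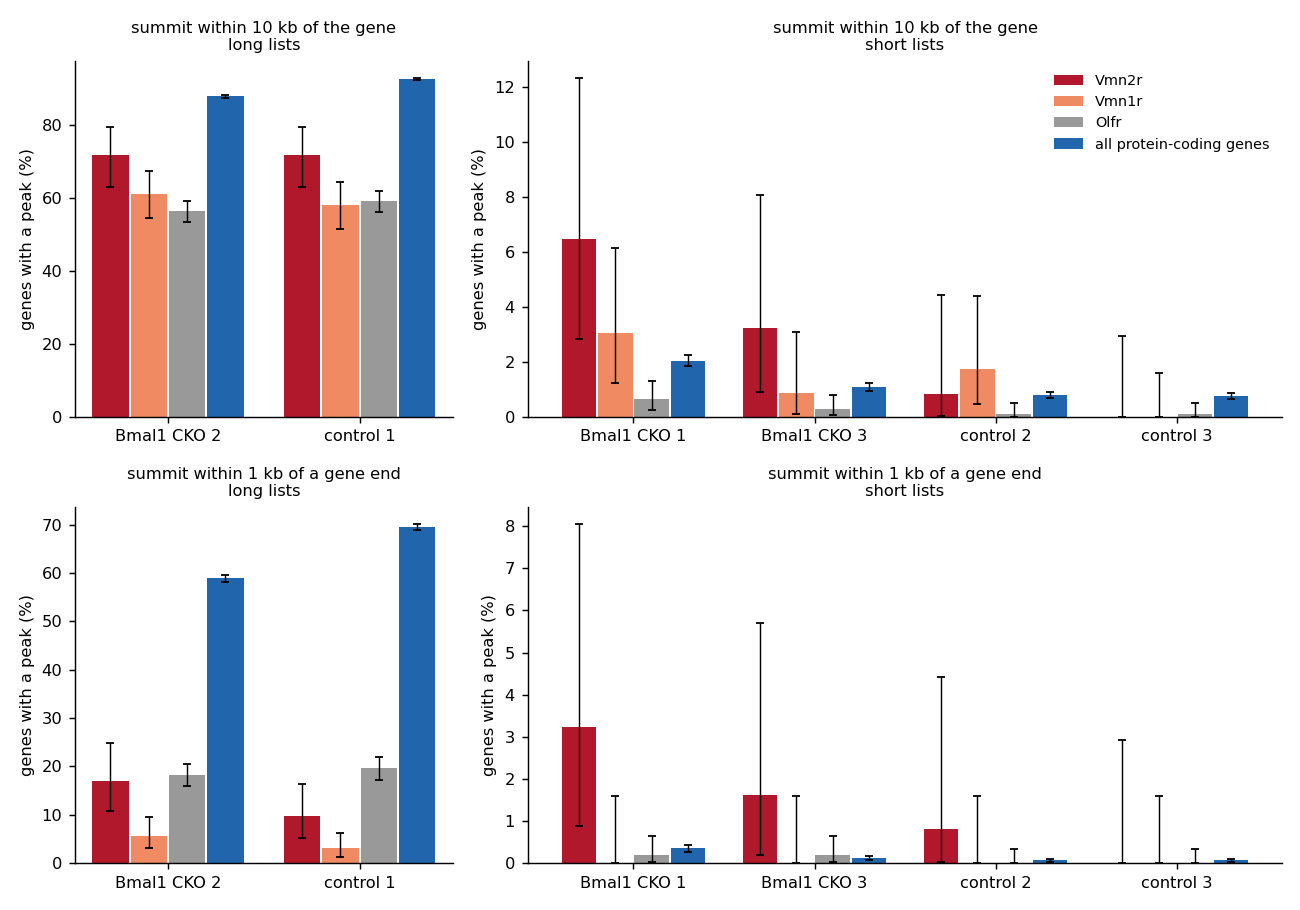
Share of genes with a peak (%, y axis) by library, within 10 kb (top) and within 1 kb of a gene end (bottom), in the long lists (left) and the short lists (right, with a finer scale), for 124 Vmn2r, 231 Vmn1r, 1110 Olfr and 21896 protein-coding genes. Bars are shares and whiskers exact binomial 95% intervals, which cover counting error only. The Vmn2r bars stand below those of all genes in both long lists and above them in Bmal1 CKO 1 and 3.

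A summit within 1 kb of a gene end was listed for 4, 21 and 2 members in Bmal1 CKO 1, 2 and 3 (3.23%, 16.9% and 1.61%), and for 12, 1 and 0 members in control 1, 2 and 3 (9.68%, 0.806% and 0%). The shares over all protein-coding genes were 0.343%, 58.9% and 0.105% in the CKO libraries and 69.5%, 0.0594% and 0.0594% in the controls. In the long lists the family was far below the background at its ends. There 9 members had an end peak in both lists, 12 in Bmal1 CKO 2 only and 3 in control 1 only, whereas over all protein-coding genes 924 had one in Bmal1 CKO 2 only and 3251 in control 1 only. The Vmn1r genes had end peaks at 5.63% and 3.03% in Bmal1 CKO 2 and control 1, and the Olfr genes at 18.1% and 19.5%. Each direction rests on 1 library per genotype.

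With strand taken from the promoter table, the start of the gene was hit less often than its other end. In Bmal1 CKO 2, 4 of 117 members (3.42%) had a summit within 1 kb of the start and 15 (12.8%) within 1 kb of the other end. In control 1, 3 (2.56%) and 9 (7.69%) had one. All 17491 genes with a promoter entry had the reverse order, with 58.2% at starts and 12.4% at other ends in Bmal1 CKO 2, and 67.7% and 19.1% in control 1. Olfr genes had 16.1% at starts and 16.9% at other ends in Bmal1 CKO 2, and 16.8% and 17.5% in control 1. Vmn1r genes had 4.85% at starts and 3.88% at other ends in Bmal1 CKO 2, and 1.94% and 1.46% in control 1. A low share at starts was thus not particular to the Vmn2r family. Vmn1r and Olfr genes have median lengths of 0.924 kb and 0.95 kb, so their start and other-end windows overlap. A summit can count at both ends there. Their order of starts and other ends thus cannot be set against that of Vmn2r genes, with a median length of 24.4 kb. The members with a start peak were Vmn2r29, Vmn2r53, Vmn2r91 and Vmn2r129 in Bmal1 CKO 2, and the first 3 of these in control 1. For Vmn2r91 the summit lay at the edge of the window, 970 bp and 1000 bp downstream of the start in Bmal1 CKO 2 and control 1. In both long lists Vmn2r2 and Vmn2r4 had a summit within 1 kb of their upstream annotated end. That end lies away from the start in the promoter table, so these summits counted neither as start nor as other-end peaks. Promoters of all 3 receptor families had a median of 1 CG pair, and their start shares in the long lists ranged from 1.94% to 16.8%. Among 1348 genes outside the receptor families with no more CG pairs than the Vmn2r median, 16.7% had a start peak and 17.4% a peak at the other end in Bmal1 CKO 2, and 20.1% and 20.3% did in control 1. The part of CG content in the Vmn2r result was not tested.

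**Figure D3:**
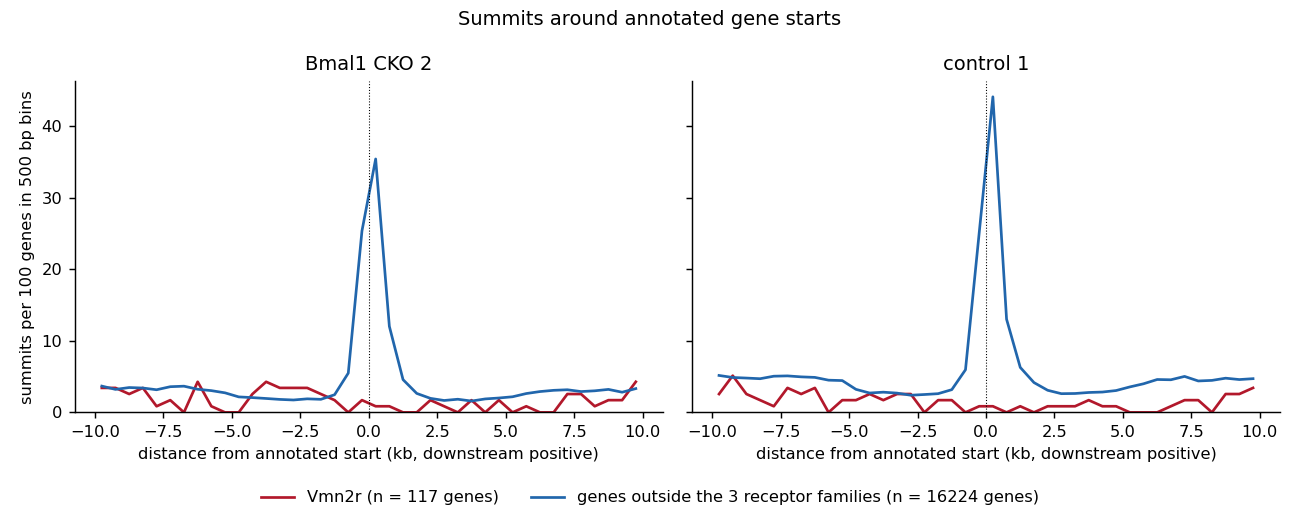
Peak summits per 100 genes in 500 bp bins (y axis) by distance from the annotated start (x axis, kb, downstream positive) in Bmal1 CKO 2 (left) and control 1 (right), for Vmn2r genes (red, n = 117) and genes outside the 3 receptor families (blue, n = 16224). The blue lines reach 35.4 and 44.1 summits per 100 genes just downstream of the start, where the red lines are at 0.855 in both libraries.

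Peaks were also sparser in and around the Vmn2r genes than around all protein-coding genes in both long lists. The genes and 10 kb on either side cover 5.60 Mb and held 231 peaks in Bmal1 CKO 2 and 200 in control 1, which is 41.3 and 35.7 peaks per Mb. The windows of all protein-coding genes held 62.6 and 83.8 peaks per Mb. The Bmal1 CKO 2 list was thus the denser of the pair in the Vmn2r windows and the sparser over all genes. The windows of Vmn1r genes had the same order, with 49.8 and 48.8 peaks per Mb in Bmal1 CKO 2 and control 1, and those of Olfr genes had 42.3 and 49.6. Vmn2r genes are no shorter than others, with a median length of 24.4 kb against 17.1 kb.

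The peaks near Vmn2r genes stood on a low background. Their local background was at the genome-wide level in the median of both long lists (5.83 fragments in Bmal1 CKO 2 and 3.46 in control 1), whereas over the windows of all protein-coding genes the median was 1.27 and 1.47 times that level. Their median fold was 3.36 and 4.04, against 2.93 and 3.41 over all windows, and their summits stacked a median of 22 and 18 fragments, against 25 and 21. The higher folds near Vmn2r genes thus went with fewer fragments and a lower background. The median background of peaks near Vmn1r and Olfr genes was at the genome-wide level too, so this is not particular to the Vmn2r family.

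Of the 231 peaks of Bmal1 CKO 2 in Vmn2r windows, 108 (46.8%) overlapped a peak of control 1. Of the 200 of control 1, 109 (54.5%) overlapped one of Bmal1 CKO 2. The shares over the windows of all protein-coding genes were 56.7% and 40.9%, so the share was lower near Vmn2r genes for Bmal1 CKO 2 and higher for control 1. With overlapping peaks of all 6 libraries merged, the Vmn2r windows held 330 regions. Of these 121 (36.7%) came from Bmal1 CKO 2 only, 93 (28.2%) from control 1 only and 105 (31.8%) from both of these alone, against 26.2%, 44.0% and 29.1% over the genome. In 3, 4 and 5 libraries 3, 1 and 1 regions were called, and 0 in all 6. Summits lay inside a Vmn2r gene for 48.1% of the Bmal1 CKO 2 peaks and 45.5% of the control 1 peaks, while the genes make up 57.5% of the window length.

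Across the genome the members fell into 19 groups separated by more than 1 Mb, of which 12 hold 2 or more genes. Chromosome 7 carries 52 members and chromosome 17 carries 32. The largest cluster, Vmn2r29 to Vmn2r52 on chromosome 7, has 24 genes over 2.96 Mb. In it 20 genes had a peak within 10 kb in Bmal1 CKO 2 and 17 in control 1, with 57.7 and 49.9 peaks per Mb. The cluster Vmn2r65 to Vmn2r79, further along the same chromosome, was the poorest of the larger ones, with peaks at 6 and 4 of 15 genes and 14.6 and 25.0 peaks per Mb. The cluster Vmn2r8 to Vmn2r17 on chromosome 5 had peaks at 6 of 10 genes in Bmal1 CKO 2 and 9 of 10 in control 1. In Vmn2r90 to Vmn2r110 on chromosome 17, 14 and 13 of 22 genes had one. All 4 genes from Vmn2r53 to Vmn2r56 on chromosome 7 had one in both lists, and all 4 had an end peak in control 1.

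**Figure D4:**
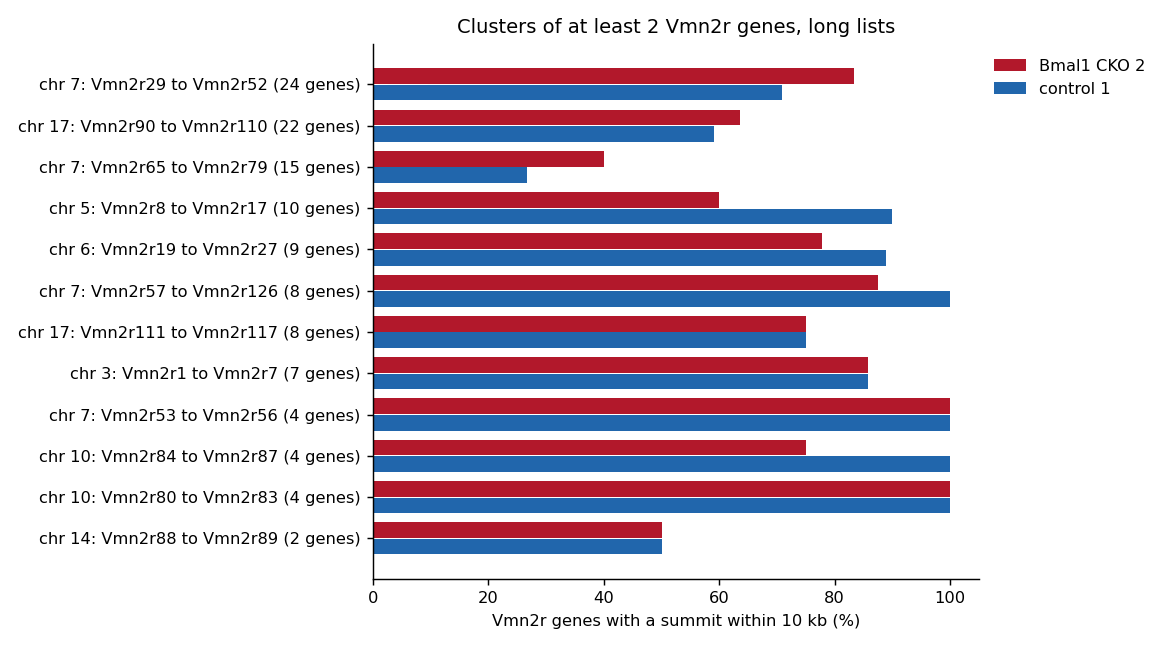
Share of Vmn2r genes with a summit within 10 kb (%, x axis) in each cluster of at least 2 members (y axis, with chromosome and number of genes), in Bmal1 CKO 2 (red) and control 1 (blue). The cluster Vmn2r65 to Vmn2r79 has the shortest bars, 40.0% and 26.7%.

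Vmn2r1 to Vmn2r7 on chromosome 3 form the branch of the family known for broad expression alongside other receptors in the same neurons. Of these 7 genes 6 (85.7%) had a peak within 10 kb in each long list, and 4 and 3 had an end peak in Bmal1 CKO 2 and control 1. Over all protein-coding genes the shares were 87.8% and 92.6% within 10 kb and 58.9% and 69.5% at gene ends. The branch thus did not stand above the background. Vmn2r1 had the most peaks of any member, 11 in Bmal1 CKO 2 and 8 in control 1, in a gene whose span contains Vmn2r2. The median over members was 1 peak in both lists, against 3 and 4 over all protein-coding genes. Vmn2r7 had a highest end fold of 3.95 and 4.26, Vmn2r2 had 2.93 and 4.48, and Vmn2r5 had 3.81 in Bmal1 CKO 2 and no peak within 10 kb in control 1.

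No peak within 10 kb was listed in any library for 22 of 124 members. Over all protein-coding genes 1188 of 21896 had none in either long list. Of the 22 members, 14 lie on chromosome 7, 9 of them in the cluster Vmn2r65 to Vmn2r79, and 5 on chromosome 17. Among them were Vmn2r106, Vmn2r108, Vmn2r14, Vmn2r28, Vmn2r39, Vmn2r41, Vmn2r43, Vmn2r46 and Vmn2r66. Vmn2r122 also had none. The table places it at bases 3536 to 11935 of chromosome 4, where the lowest summit of any list is at 3050305, so its position may not be one at which the lists could hold a peak. Vmn2r28 lay just outside the window in Bmal1 CKO 2, 10448 bp from the nearest summit, and Vmn2r34 just inside it at 9536 bp. In control 1 the nearest pair was Vmn2r95 at 10103 bp and Vmn2r116 at 9852 bp.

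Peaks in the short lists touched 9 of 124 members in 4 of the 19 groups, namely the cluster on chromosome 3, the cluster Vmn2r29 to Vmn2r52 on chromosome 7 and both large clusters on chromosome 17. Without Bmal1 CKO 1 the number of members was 4. These groups hold 61 members. Over all protein-coding genes the shares were 2.04% and 1.07% in Bmal1 CKO 1 and 3, and 0.776% and 0.754% in control 2 and 3. The share of all genes with a peak in any short list was not counted. By chromosome, Bmal1 CKO 1 had 1 of the 7 members on chromosome 3, 5 of 52 on chromosome 7 and 2 of 32 on chromosome 17. Bmal1 CKO 3 had 1 on chromosome 3 and 3 on chromosome 7, and control 2 had 1 on chromosome 3. Further peaks lay between the members. The whole span of Vmn2r29 to Vmn2r52, with 10 kb on either side, held 19 peaks in Bmal1 CKO 1 and 5 in Bmal1 CKO 3, and 1 in control 2 and 0 in control 3. That of Vmn2r111 to Vmn2r117 held 4 in Bmal1 CKO 1 and 1 in Bmal1 CKO 3, and 1 in each of control 2 and control 3. The span of Vmn2r57 to Vmn2r126 held 1 in Bmal1 CKO 1. The short lists held no peak within 10 kb of members on chromosomes 4, 5, 6, 10, 14 or X. Peaks in Vmn2r windows made up 0.554%, 0.167% and 0.771% of the lists of Bmal1 CKO 1, 2 and 3 (8, 231 and 4 peaks), and 0.111%, 0.244% and 0% of those of control 1, 2 and 3 (200, 1 and 0 peaks).

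Vmn2r4 had the most widely listed peak of the family (chromosome 3, gene 64388561 to 64415320). Its summit lay at 64414445, 64414448 and 64414449 in Bmal1 CKO 1, 2 and 3, with folds of 6.61, 4.24 and 7.93, and at 64414437 and 64414448 in control 1 and 2, with folds of 6.28 and 8.72. Control 3 listed none. The folds came from 24, 28 and 12 stacked fragments in the CKO libraries and from 27 and 14 in control 1 and 2, over backgrounds of 2.78, 5.83 and 0.640, and of 3.46 and 0.720 fragments. The place lies inside the annotated gene, 871 to 883 bp from its upper end, and 4380 to 4392 bp upstream of the start in the promoter table. Both genotypes listed it. The nearest annotated gene outside the family, the small nucleolar RNA gene Gm23897, lies 95880 to 95892 bp away.

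Vmn2r29 was the member with the strongest peak in both long lists (chromosome 7, gene 7212996 to 7278289, minus strand). Its summit lay 23 bp upstream of the start in Bmal1 CKO 2, with a fold of 8.31 from 68 fragments, and 25 bp upstream in control 1, with a fold of 9.76 from 64 fragments. Both stood at percentile 99.9 of the folds in their list, and the peaks were 935 and 952 bp wide. In Bmal1 CKO 1 the summit was 242 bp downstream of the start with a fold of 7.22 from 27 fragments, and in Bmal1 CKO 3 it was 368 bp downstream with a fold of 4.65 from 7 fragments. Control 2 and control 3 listed no peak within 10 kb. This is the member whose promoter, printed above, is rich in CG pairs and unlike those of the other members. The nearest annotated gene outside the family is Clcn4, which encodes a chloride transporter and whose closer end lies 3995 to 4388 bp away.

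Vmn2r102, on chromosome 17 (19660399 to 19694748), had the highest fold of the family in Bmal1 CKO 1. The fold there was 9.69, from 36 fragments over a background of 2.82, with the summit 1736 bp upstream of the start. In Bmal1 CKO 2 the summit was 1739 bp upstream, with a fold of 4.10 from 27 fragments over 5.83. No other library listed this place. Control 1 had a different peak within 10 kb of the gene, with a fold of 3.36. The only other place of the Vmn2r windows called in 2 CKO libraries and no control lay 581 bp and 777 bp beyond the other end of Vmn2r35, with folds of 3.94 in Bmal1 CKO 1 and 3.81 in Bmal1 CKO 2. Control 1 had 4 other peaks within 10 kb of that gene, with a highest fold of 4.71. Over the genome 120 of 241559 regions had that pattern. The mirror pattern of 2 controls and no CKO library was found in 0 of the 330 regions in Vmn2r windows and in 4 regions over the genome. A region of the CKO-only pattern near a member was known when the family was chosen, so these counts carry no test. The short CKO lists also held more peaks (1444 and 519) than the short control lists (410 and 372), and the part of list length was not tested.

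The other short-list peaks within 10 kb of members of the chromosome 7 cluster were each listed at their place in 1 of the short lists. Vmn2r48 had a peak inside the gene with folds of 6.34 in Bmal1 CKO 1 and 4.24 in Bmal1 CKO 2, and of 5.60 in control 1. Vmn2r33 had one with folds of 4.98 in Bmal1 CKO 2 and 7.14 in Bmal1 CKO 3, and of 9.33 in control 1. That summit lies 9583 to 9689 bp from the gene, near the limit of the window, and inside the pseudogene Gm6842. A place 10021 bp from Vmn2r38 in Bmal1 CKO 1, with a fold of 3.99, fell just outside. Vmn2r42 had peaks at different places, 3334 bp outside the gene in Bmal1 CKO 1 (fold 4.75) and inside it in Bmal1 CKO 3 (fold 7.69), and neither place was in another list. Vmn2r36 had a peak of fold 5.02 inside the gene at a place that Bmal1 CKO 1 alone listed.

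Vmn2r117 on chromosome 17 (23459675 to 23479597) had its short-list peak in Bmal1 CKO 1 alone, 65 bp upstream of the start, inside the promoter printed above. The fold was 4.57, from 20 fragments over a background of 3.60, close to the median fold of that list (4.67). In the long lists the summits near this gene lay elsewhere, with highest folds of 3.66 in Bmal1 CKO 2 and 4.26 in control 1. Of the 8 peaks of Bmal1 CKO 1 in Vmn2r windows 5 overlapped a peak of Bmal1 CKO 2 and 3 one of control 1. Of the 4 peaks of Bmal1 CKO 3, 3 overlapped each long list. The single peak of control 2, at Vmn2r4, overlapped both.

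**Figure D5:**
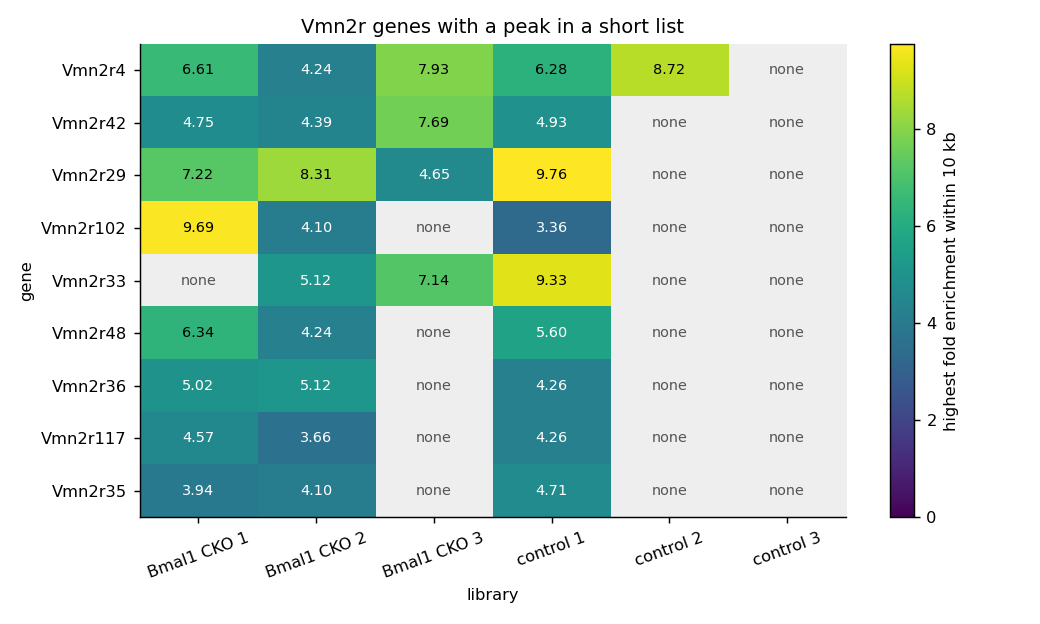
Highest fold enrichment within 10 kb (colour and number) of the 9 Vmn2r genes with a peak in a short list (y axis) in each library (x axis), with "none" where no peak was listed. A row can hold different peaks of one gene. Vmn2r4 is the only row with a value in control 2, and control 3 has none.

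Among the end peaks of the long lists, the highest folds after Vmn2r29 were 4.83 at Vmn2r20, 4.39 at Vmn2r54, 4.24 at Vmn2r4, 3.95 at Vmn2r7 and 3.81 at both Vmn2r5 and Vmn2r35 in Bmal1 CKO 2. Vmn2r129, Vmn2r32 and Vmn2r117 followed with 3.79, 3.66 and 3.66. In control 1 they were 6.28 at both Vmn2r91 and Vmn2r4, 4.93 at Vmn2r54, 4.48 at Vmn2r2, 4.26 at Vmn2r7 and 4.04 at Vmn2r78. Vmn2r20, Vmn2r79 and Vmn2r56 each had 3.81. Vmn2r20, on chromosome 6, had its summit 487 and 477 bp from the far end of the gene in Bmal1 CKO 2 and control 1, a place that the pseudogene Gm18375 also covers. Vmn2r54, on chromosome 7, had its summit 818 and 704 bp from the far end. The Vmn2r129 summit lay at −191 bp from the start in Bmal1 CKO 2 alone, at base 60 of a promoter with 2 CG pairs. Folds are relative to each library's own background, and differences in fold across libraries carry no test.

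Of 15 genes of vomeronasal signalling and vomeronasal neurons, 7 had an end peak in Bmal1 CKO 2 and 10 in control 1, and 0 had one in a short list. The backgrounds were the 58.9% and 69.5% of all protein-coding genes given above. Trpc2 had folds of 2.61 and 2.53 in Bmal1 CKO 2 and control 1, Gnao1 had 2.22 and 2.86, and the G protein gamma subunit gene Gng8 had 2.48 and 2.79. Gnb1, a beta subunit gene used in many cells, had 2.49 and 3.37. Gnai2, whose product serves the vomeronasal type 1 receptors, had 2.56 in control 1 alone, and Omp, a marker of mature olfactory and vomeronasal neurons, had none. Of the H2-M genes, which encode class I-like molecules made with type 2 receptors in the same neurons, H2-M10.1 had 3.22 and 4.42, H2-M10.2 had 2.47 and 4.52 and H2-M10.6 had 3.11 and 3.63. H2-M10.4 and H2-M10.5 had 4.53 and 4.04 in control 1 alone, and H2-M1, H2-M9, H2-M10.3 and H2-M11 had none.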

How the data were processed

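BMAL1 ChIP-seq was made from retinas of 3 Bmal1 CKO and 3 wild-type libraries, and 1 peak list per library was deposited. Per the submitters' processing notes, Trim Galore, Bowtie2, MACS2 and mm10 were used. Versions, settings and use of an input were not given in the sources used here. Each deposited peak has a fold (a ratio over local background), −log10 p and −log10 q values and a whole-number score, 10 times −log10 q rounded down. The authors called peaks per library.

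Genes came from RefSeq GRCm38.p6. A peak counted when its summit (start plus offset) lay within 1 kb of an annotated gene end or within 10 kb of the gene. Clusters were split at gaps over 1 Mb. Strand and sequence came from the RefSeq promoter table, with the start nearest to the annotated gene end, and 7 members had no entry. Fragments and background were solved from fold and p, as (n + 1)/(background + 1) and a Poisson tail. The number was whole within 0.02 for 100.0% of peaks. No read totals are given, so this background is the measure of depth.

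Members, lists and windows were chosen with earlier results of these data known. Named are members with short-list peaks, the 10 highest end folds per long list, 10 members without peaks and pathway genes with end peaks. Others, such as members at the edge of a window, were named after their values were seen. The strand split and promoter measures were added after the lists were seen. Python 3.11.15, pandas 2.3.3, scipy 1.17.1 and Biopython 1.88 were used. Assignment and depth code was tested on simulated data. Alternatives were other windows, fold and q-value limits, peak intervals in place of summits, pseudogenes, equal list lengths and left-out libraries.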

Additional observations from a re-analysis of the deposited data

How the results depend on the processing

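The share of Vmn2r genes with a peak within 10 kb was 71.8% in both long lists. At a fold of at least 5 it was 4.03% in Bmal1 CKO 2 and 25.0% in control 1, against 4.64% and 30.4% over all protein-coding genes. The Bmal1 CKO 2 share was thus near the background at that fold. With −log10 q limited to 5 or more the shares were 45.2% and 54.8%, against 56.1% and 80.6% over all protein-coding genes. With summits inside the gene only they were 49.2% and 42.7%, and the share over all genes was not counted there. The share with an end peak, 16.9% in Bmal1 CKO 2 and 9.68% in control 1, was 0.806% and 2.42% at a fold of at least 5 and 54.0% and 42.7% within 5 kb of an end, and 8.87% in Bmal1 CKO 2 under the same q limit. Of the members with a short-list peak, 9 in the lists as deposited, 5 had one inside the gene, 22 genes had one when pseudogenes were added, and 4 to 9 had one when a short list was left out. The mean CKO minus control difference of 2.96 percentage points was −5.11 at a fold of at least 5 and −0.806 under that q limit, and ranged from −19.4 to 26.7 when a library was left out. The cause of these changes was not tested. Counting any overlap of the peak interval moved none of the 4 shares of single lists beyond its binomial interval. No paired analysis was possible because the counts carry no test and the labels do not say that a number is shared by a pair. Depth and list length differ within each genotype, and a peak missing from a short list is not shown to be absent; the part of depth was not tested.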

Other observations

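The pseudogenes of the family were not members. Of 148 pseudogenes with a symbol starting Vmn2r, 13 (8.78%), 83 (56.1%) and 7 (4.73%) had a summit within 10 kb in Bmal1 CKO 1, 2 and 3, and 88 (59.5%), 4 (2.70%) and 2 (1.35%) in control 1, 2 and 3. Over all protein-coding genes the shares were 2.04%, 87.8% and 1.07% in Bmal1 CKO 1, 2 and 3, and 92.6%, 0.776% and 0.754% in control 1, 2 and 3. Pseudogenes outside the family were not counted. In the short lists 13 Vmn2r pseudogenes had one, of which 6 lie on chromosome 4. The protein-coding members there are only 2, Vmn2r122 and Vmn2r129, and had none. The position of Vmn2r122 may not be one at which the lists could hold a peak. The Vmn2r pseudogenes were counted with the same window, and their short-list peaks include both genotypes.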
